A study of Schizosaccharomyces pombe with 12 samples.

Results

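The asp1-H397A strain of the fission yeast Schizosaccharomyces pombe was compared directly with the ssu72-C13S strain, over all genes. The comparison used the 3 asp1-H397A and the 3 ssu72-C13S libraries, 6 of the 12 libraries of the study, and tested 6189 of the 6986 genes counted. The asp1-H397A strain carries the H397A allele of asp1 and is otherwise labelled with no second mutation, and the ssu72-C13S strain likewise carries only the C13S allele of ssu72. The 6 other libraries were 3 of the wild type (WT) and 3 of a triple mutant that joins both alleles to a deletion of aps1. The WT libraries serve here to show on which side of WT each single mutant lay. All cultures were grown vegetatively at 30 °C to log phase in the rich medium YES, and poly(A)+ RNA was sequenced with a stranded kit. Each genotype has 1 strain number, so its 3 libraries are replicates of 1 strain, and differences between strains other than the named alleles cannot be told apart from the alleles. The labels do not say whether the replicates were separate cultures, so the p-values measure the spread between these libraries.

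Asp1 makes the inositol pyrophosphate signalling molecule IP8 with a kinase domain and removes it with a pyrophosphatase domain, and H397A is a change in the pyrophosphatase domain. Ssu72 is a subunit of the cleavage and polyadenylation machinery and a phosphatase for the repeat domain of RNA polymerase II, and C13S replaces its catalytic cysteine. In phosphate-rich medium fission yeast keeps the genes pho1, pho84 and tgp1 low through transcription of a non-coding RNA upstream of each, and an early end of that transcription lets the gene be expressed.

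Levels are given as counts per 1e6 counts (CPM), with library totals scaled by edgeR's TMM method. Differences are log2 fold changes of asp1-H397A minus ssu72-C13S with their standard error (SE), so a positive value is higher in asp1-H397A. A gene was called where the p-value of edgeR's quasi-likelihood test, after Benjamini-Hochberg adjustment across the whole table, was under 0.05. CPM were compared between strains and not between genes, since they are not divided by gene length.

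The 6 libraries held between 24979692 and 27271529 counts, and a count of 0 allowed up to 3 counts, or 0.110 to 0.120 CPM. Replicate 3 of asp1-H397A stood apart from replicates 1 and 2. Its log2 CPM correlated with theirs at 0.992, against 0.997 between replicates 1 and 2. The slope of its log2 CPM, relative to the mean of all libraries, on the A content of the transcript was 0.238 per 10 percentage points, against -0.505 and -0.561 in replicates 1 and 2, and 0.0882 to 0.135 in ssu72-C13S. In WT the slopes were 0.245 to 0.471, and in the triple mutant 0.202, -0.414 and -0.402. On this slope replicate 3 thus lay nearer to WT and ssu72-C13S than replicates 1 and 2 did. Whether replicate 3 or replicates 1 and 2 are typical of the strain cannot be told. The part of replicate 3 was examined only by leaving it out and by removing the A content trend of each library. Both mutations are single-residue changes that counts per gene do not show, so the genotype labels could not be checked from the mutated genes. All 12 libraries were listed at 0 counts for ura4.

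In all, 3342 of the 6189 genes (54.0%) were called. Of these, 1836 (29.7% of genes tested) were higher in asp1-H397A and 1506 (24.3%) were lower. With upper-quartile in place of TMM scaling the median of all genes moved by -0.16 and the split became 1165 higher and 2292 lower, so small differences depend on the scaling. Without asp1-H397A replicate 3 the numbers were 1964 higher and 1952 lower. With the A content trend of each library removed, 2486 of 6169 genes were higher and 1804 lower. Differences of 2-fold or more were called for 755 genes (12.2%), of which 272 (4.39%) were higher and 483 (7.80%) were lower in asp1-H397A. Against WT, asp1-H397A differed in 2747 genes (44.4%) and ssu72-C13S in 3384 (54.7%), in comparisons that share the WT libraries.

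**Figure D1:**
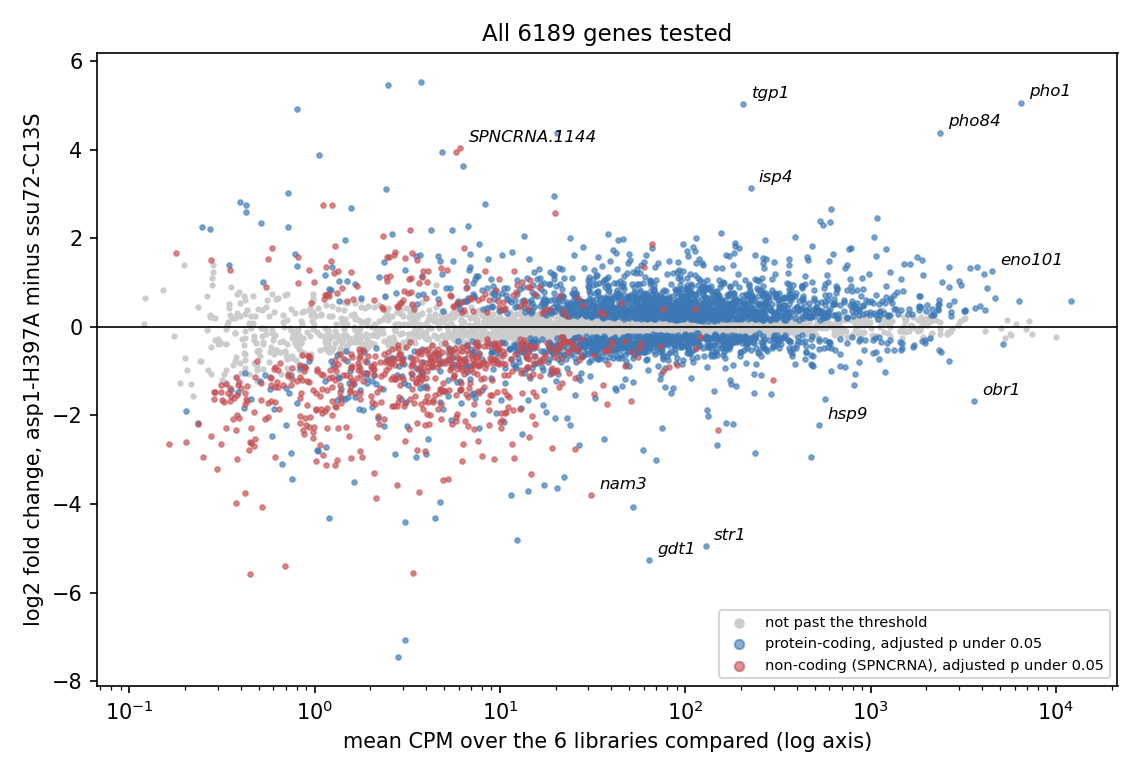
Log2 fold change of asp1-H397A minus ssu72-C13S (vertical axis) against mean CPM over the 6 libraries (horizontal log axis) for the 6189 genes tested, with called protein-coding genes in blue, called non-coding RNAs in red and other genes in grey. Most called non-coding RNAs lie under the zero line, 553 lower against 124 higher, while pho1, pho84 and tgp1 lie far above it at high or middle levels.

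The phosphate acquisition genes were far higher in asp1-H397A. The mRNA of pho1, a cell-surface acid phosphatase, stood at 372, 394 and 358 CPM in the ssu72-C13S libraries and at 13216, 13543 and 10814 CPM in the asp1-H397A libraries. The groups were far apart, with a log2 fold change of 5.06 (SE 0.13, edgeR adjusted p = 6.42e-12), or 33.4-fold. WT lay between them at a mean of 2117 CPM, so pho1 was higher than WT in asp1-H397A (log2 2.56) and lower than WT in ssu72-C13S (log2 -2.50), both past the threshold.

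The phosphate transporter gene pho84 had 218, 220 and 206 CPM in ssu72-C13S and 4675, 4891 and 3920 CPM in asp1-H397A. Its log2 fold change was 4.39 (SE 0.11, edgeR adjusted p = 6.42e-12). It too lay on both sides of WT, 2.12 above it on the log2 scale in asp1-H397A and at -2.26 in ssu72-C13S. The glycerophosphodiester transporter gene tgp1 measured 11.8, 13.6 and 11.2 CPM in ssu72-C13S and 423, 416 and 357 CPM in asp1-H397A. Its log2 fold change of 5.03 (SE 0.10, edgeR adjusted p = 5.17e-13) was almost as large as that of pho1 but was made up differently. Against WT, tgp1 was at log2 4.39 in asp1-H397A and at -0.64 in ssu72-C13S, so most of its difference was on the asp1-H397A side. In all 3 genes asp1-H397A replicate 3 was the lowest of its group. The neighbour SPBC1271.10c, which overlaps tgp1 on the opposite strand, was lower in asp1-H397A, with 71.8, 72.9 and 56.8 CPM against 145, 149 and 153 CPM (log2 -1.15).

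Genes that neighbour or regulate these were also called. The non-coding RNA prt2, which is transcribed upstream of pho84 and overlaps it on the same strand, had 34.1, 34.8 and 33.1 CPM in ssu72-C13S and 11.4, 12.1 and 12.2 CPM in asp1-H397A (log2 -1.51, SE 0.08, edgeR adjusted p = 2.51e-09). It was lower where pho84 was higher. Against WT, prt2 was called in asp1-H397A (log2 -1.46) but not in ssu72-C13S (log2 0.05), in which pho84 was low. Reads of a transcript that runs through both genes cannot be told apart by gene. The gene ecl3, which adjoins prt2 on the opposite strand and encodes a small protein linked to lifespan, had 2.47, 1.59 and 1.48 CPM in ssu72-C13S and 41.4, 41.2 and 33.5 CPM in asp1-H397A (log2 4.38, SE 0.17, edgeR adjusted p = 1.97e-10). WT lay between the strains at 5.76 CPM.

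The transcription factor gene pho7, whose product activates pho1 and tgp1, was slightly lower in asp1-H397A, with 164, 163 and 145 CPM against 198, 193 and 196 CPM (log2 -0.32, SE 0.08, edgeR adjusted p = 0.00329). Both strains had more pho7 than WT, at log2 0.34 and 0.66. The gene csk1, for a CDK-activating kinase known as a repressor of the phosphate genes, was lower at 13.5, 15.5 and 18.4 CPM against 30.5, 30.2 and 29.4 CPM (log2 -0.92, SE 0.12, edgeR adjusted p = 1.71e-05). The direction of pho7 was thus opposite to that of the genes it activates.

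**Figure D2:**
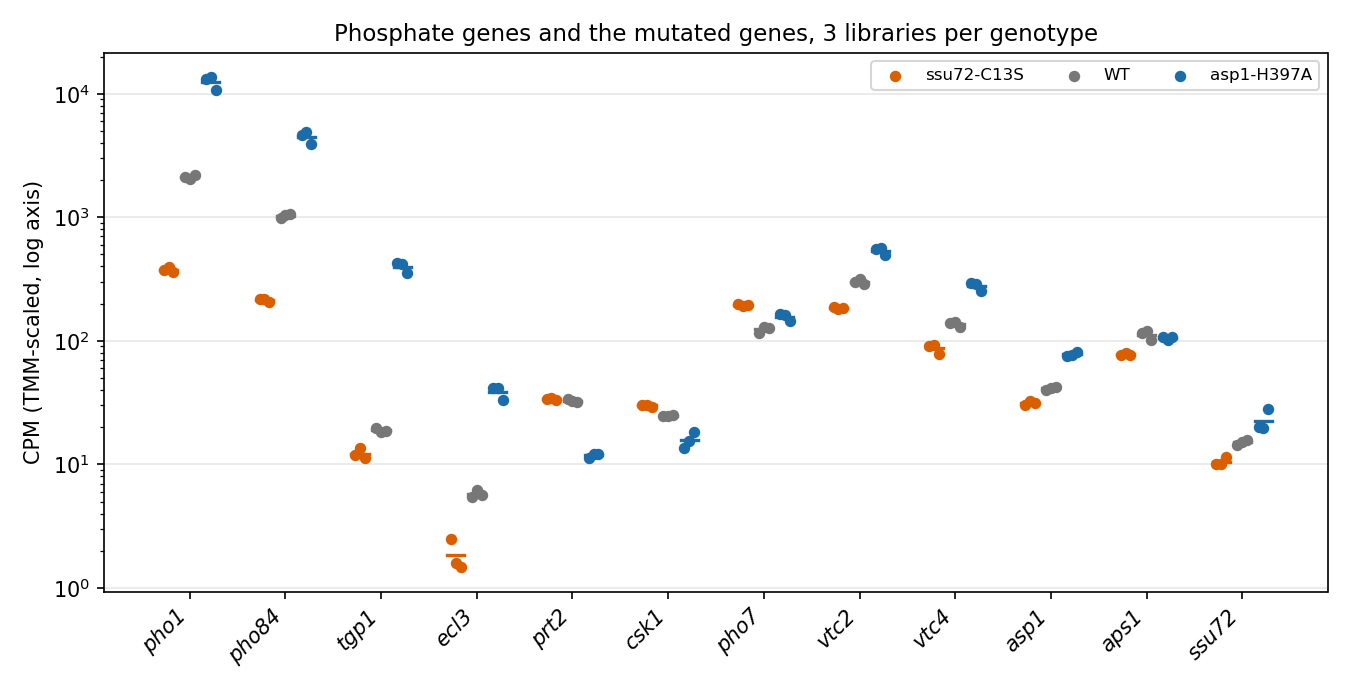
CPM on a log axis of the phosphate genes, the vtc genes and the mutated genes in each library (points) with the mean of each genotype (short bar), for ssu72-C13S (orange), WT (grey) and asp1-H397A (blue). For pho1, pho84 and ecl3 the WT libraries lie between the mutants, while for tgp1 and prt2 WT lies close to ssu72-C13S.

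Of 5 tested genes for inositol pyrophosphate and polyphosphate metabolism, 4 were higher and 1 was lower in asp1-H397A. The shares over all genes were 29.7% higher and 24.3% lower. The list had a median log2 of 1.32, against 0.03 over all genes. Its higher genes included asp1, the gene mutated in asp1-H397A. The genes of the vacuolar polyphosphate polymerase led them. The catalytic subunit gene vtc4 had 296, 286 and 251 CPM in asp1-H397A and 90.9, 93.0 and 78.1 CPM in ssu72-C13S (log2 1.67, SE 0.08, edgeR adjusted p = 1.90e-09). The other subunit gene, vtc2, had 558, 562 and 494 CPM against 187, 181 and 185.8 CPM (log2 1.54, SE 0.07). For both genes the strains were well apart, on opposite sides of WT, which had means of 137 CPM for vtc4 and 302 CPM for vtc2. The lower member was pqr1, for a ubiquitin ligase with an SPX domain (log2 -0.29). A gene annotated as encoding an SPX and EXS domain protein, spx2, was higher at log2 1.27, while SPNCRNA.1294 on its opposite strand was lower at -2.93. It was named after its values were seen.

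The mutated genes differed in level too. The asp1 mRNA had 76.0, 76.9 and 81.4 CPM in asp1-H397A and 30.4, 32.4 and 31.2 CPM in ssu72-C13S (log2 1.32, SE 0.06, edgeR adjusted p = 1.66e-09). WT lay between them at 41.3 CPM, closer to ssu72-C13S. The non-coding RNA SPNCRNA.1144 lies opposite asp1 and was the non-coding RNA with the largest positive difference among those with at least 5 CPM. It had 11.7, 11.8 and 11.04 CPM in asp1-H397A and 0.858, 0.652 and 0.576 CPM in ssu72-C13S (log2 4.04, SE 0.17, edgeR adjusted p = 4.61e-10). Its level in ssu72-C13S was that of WT, with a log2 difference of -0.00 (adjusted p = 0.99 by edgeR). The kit kept the strand, but whether the counting used it is not given in the sources used here, so reads of asp1 and of its antisense RNA cannot be told apart with certainty. The same holds for every overlapping pair named here.

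The ssu72 mRNA had 19.9, 19.6 and 28.0 CPM in asp1-H397A and 10.02, 10.04 and 11.5 CPM in ssu72-C13S (log2 1.10, SE 0.15, edgeR adjusted p = 2.63e-05). The mutant allele was thus the less abundant mRNA at its own locus, whereas for asp1 the mutant allele was the more abundant one. The gene aps1, for another inositol pyrophosphate pyrophosphatase, had 108, 102 and 107 CPM in asp1-H397A and 77.0, 79.4 and 77.4 CPM in ssu72-C13S (log2 0.44), with asp1-H397A at the WT level (log2 -0.09, not past the threshold).

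Most iron uptake genes were lower in asp1-H397A. Fission yeast takes up iron through a ferric reductase, an oxidase and permease pair and siderophore transporters, and the repressor Fep1 keeps these genes low when iron is sufficient. Of 13 tested iron genes, 10 were lower and 2 were higher in asp1-H397A, with a median log2 of -1.21, against 24.3% of all genes lower. The siderophore transporter gene str1 had 238, 220 and 291 CPM in ssu72-C13S and 8.67, 7.79 and 7.70 CPM in asp1-H397A. These groups were 31.0-fold apart (log2 -4.95, SE 0.16, edgeR adjusted p = 4.75e-11), and WT lay between them at 23.1 CPM.

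The ferroxidase gene fio1 had 34.7, 36.2 and 42.7 CPM in ssu72-C13S and 3.12, 3.20 and 2.78 CPM in asp1-H397A (log2 -3.64, SE 0.15). Its partner, the iron permease gene fip1, had 113, 114 and 143 CPM against 15.4, 16.2 and 14.6 CPM (log2 -3.003, SE 0.13). The reductase gene frp1 had 26.4, 25.6 and 27.5 CPM against 2.08, 1.99 and 1.99 CPM (log2 -3.71, SE 0.11). Each of the 3 genes was past the threshold on both sides of WT. Their log2 values against WT were -1.08 to -1.51 in asp1-H397A and 1.90 to 2.56 in ssu72-C13S. For the ferrichrome transporter gene str3, 476 counts over the ssu72-C13S libraries stood against 2 counts over the asp1-H397A libraries, a ratio of 205.3 with a 95% exact counting interval from 56.5 to 1700.5 that covers counting error only. The haem uptake gene shu1, at under 2 CPM in every library, was also lower (log2 -3.09).

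Differences were smaller in the rest of the list. The second reductase gene frp2 (log2 -1.21), the ferrichrome synthesis genes sib2 (log2 -0.49) and sib1 (log2 -0.31) and php4, for a repressor of iron-using genes (log2 -0.42), were lower than in ssu72-C13S. Against WT, sib1, sib2 and php4 were at log2 0.39 to 0.45 in asp1-H397A and 0.70 to 0.92 in ssu72-C13S. The repressor gene fep1 (log2 0.22) and the vacuolar iron transporter gene pcl1 (log2 0.17) were higher, and with upper-quartile scaling the counts were 11 lower and 0 higher. The siderophore transporter gene str2 did not pass (log2 -0.07, edgeR adjusted p = 0.482). Over the list, the median log2 against WT was -0.02 in asp1-H397A and 1.39 in ssu72-C13S.

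**Figure D3:**
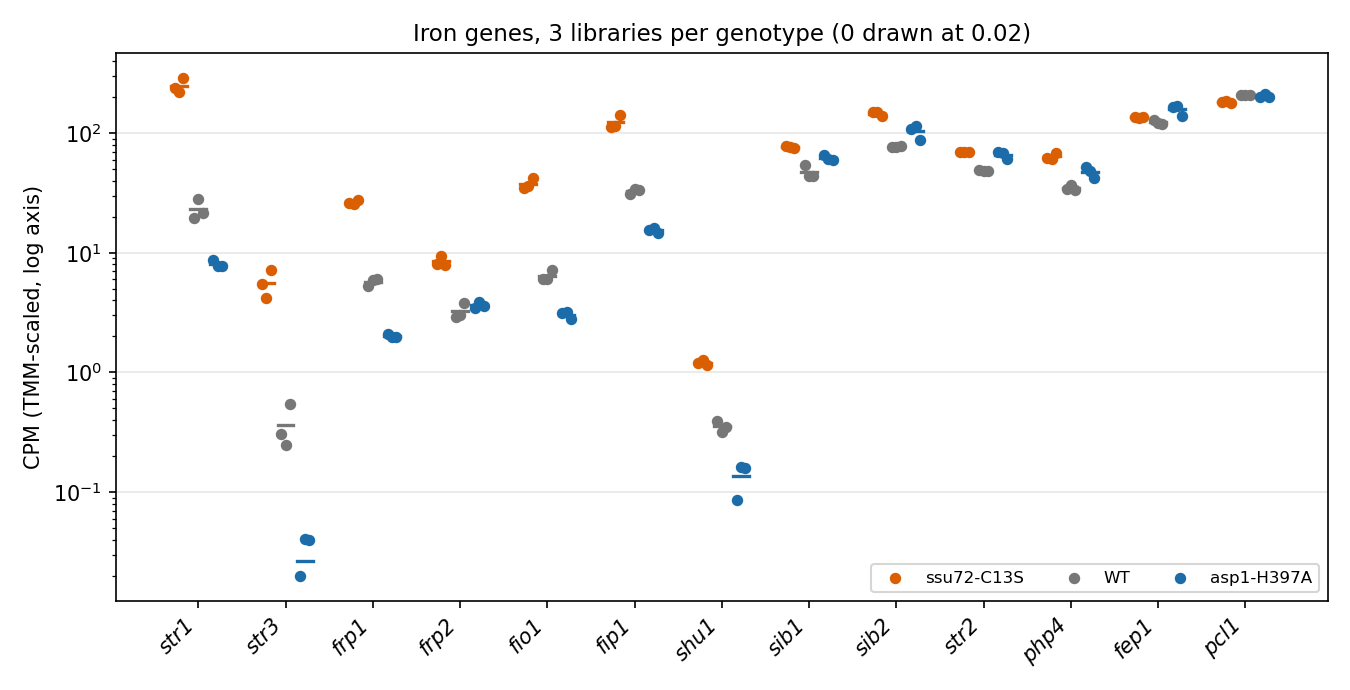
CPM on a log axis of the 13 iron genes in each library (points) with the mean of each genotype (short bar), for ssu72-C13S (orange), WT (grey) and asp1-H397A (blue). For str1, frp1, fio1 and fip1 the WT libraries lie between the mutants, while sib1, sib2 and php4 have both mutants above WT.

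Other protein-coding genes that fell at the extremes belonged to several functions. The gene gdt1, annotated as a GDT1-like protein, had 127, 125 and 120 CPM in ssu72-C13S and 3.60, 3.77 and 2.26 CPM in asp1-H397A (log2 -5.27, SE 0.23, edgeR adjusted p = 5.10e-10), with WT lowest at 0.675 CPM. The neighbours of gdt1 on both sides, SPAC186.06 and SPAC186.04c, were lower in asp1-H397A as well, at no more than 0.13 CPM in every asp1-H397A library and at 1.99 to 6.55 CPM in the ssu72-C13S libraries. Both neighbours were chosen with their values in view. The sulfiredoxin gene srx1, which repairs oxidised peroxiredoxin, had 100.2, 98.7 and 97.0 CPM against 6.28, 6.33 and 5.04 CPM (log2 -4.07, SE 0.12). SPAPB1A11.05 was at log2 -3.79 and ddr48 at -3.57. The name matched to SPAPB1A11.05, sap49, for a U2 snRNP-associated protein, was shared with another tested identifier, so its product is uncertain.

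The aldo/keto reductase gene SPAC750.01 was called at log2 -4.81, but ssu72-C13S replicate 1 had 57.7 CPM where replicates 2 and 3 had 5.91 and 7.92 CPM. Without that library its log2 fold change was -3.02. The asp1-H397A libraries had 0.910, 0.730 and 0.913 CPM.

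On the higher side, isp4, an oligopeptide transporter gene, had 400, 437 and 376 CPM in asp1-H397A and 45.2, 50.8 and 42.0 CPM in ssu72-C13S (log2 3.14, SE 0.12, edgeR adjusted p = 1.51e-10). The peptide N-glycanase gene ngl1 had 11.9, 11.2 and 11.9 CPM against 1.20, 0.616 and 0.972 CPM (log2 3.64, SE 0.18), and asp1-H397A was near WT (log2 0.29, not past the threshold). It overlaps cft2 on the opposite strand, and cft2 (log2 1.503) and the next gene, set10 (log2 1.99), were higher too. In all 3 genes ssu72-C13S was the strain that lay away from WT, with log2 values against WT of -3.34, -1.40 and -2.02. The mitochondrial translation GTPase gene guf1 was higher at log2 2.76, with 14.0, 12.2 and 17.5 CPM against 2.64, 1.81 and 1.94 CPM. On its opposite strand SPNCRNA.1037 went the other way, with 0.130, 0.122 and 0.159 CPM in asp1-H397A and 5.63, 6.78 and 7.67 CPM in ssu72-C13S (log2 -5.56, SE 0.29).

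By absolute amount, the genes with the largest excess of CPM in asp1-H397A over ssu72-C13S were pho1, the glycolytic aldolase gene fba1 and pho84. The fba1 mRNA had 15112, 15074 and 13290 CPM against 9445, 9843 and 9713 CPM (log2 0.58, SE 0.09). The largest difference the other way was that of the quinone reductase gene obr1. It had 5489, 5546 and 5423 CPM in ssu72-C13S and 1663, 2149 and 1366 CPM in asp1-H397A (log2 -1.67, SE 0.18, edgeR adjusted p = 3.50e-06). Both strains were above WT for obr1, at log2 0.47 in asp1-H397A and 2.14 in ssu72-C13S. After obr1 came the phospholipase gene plb1 (log2 -0.78) and the actin gene act1 (log2 -0.38).

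Genes for mating and entry into meiosis were mostly higher in asp1-H397A. Of 12 tested, 10 were higher and 1 was lower, with a median log2 of 0.79 against 0.03 over all genes and 29.7% of all genes higher. The master regulator gene ste11 had 87.3, 78.7 and 59.8 CPM in asp1-H397A and 23.0, 23.9 and 25.1 CPM in ssu72-C13S (log2 1.65, SE 0.11, edgeR adjusted p = 4.93e-08). The meiotic entry gene mei2 had 48.6, 42.8 and 39.1 CPM against 10.7, 13.7 and 12.96 CPM (log2 1.80, SE 0.12). The strains did not overlap for either gene. Against WT, mei2 was lower in both mutants, at log2 -0.70 in asp1-H397A and -2.51 in ssu72-C13S. The MADS-box factor gene map1 (log2 1.48), the G-protein regulator gene rgs1 (log2 1.17) and the MAP kinase gene spk1 (log2 1.07) were also higher, and fus1, for a formin of cell fusion, was lower (log2 -0.49). Over the list, the median log2 against WT was 0.19 in asp1-H397A and -0.73 in ssu72-C13S.

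Markers of the mating types were examined because cultures can hold cells of either type. Among M cell genes 3 of 7 were higher and 2 were lower, against 33.9% higher and 18.5% lower over protein-coding genes. The largest difference was that of the pheromone gene mfm2, with 107, 105 and 95.2 CPM against 32.0, 28.9 and 27.9 CPM (log2 1.79). The lower genes were the pheromone gene mfm3 (log2 -0.78) and sxa2, with raw counts of 419, 446 and 570 in asp1-H397A and 890, 813 and 800 in ssu72-C13S. The call of mfm3 was lost without asp1-H397A replicate 1 or ssu72-C13S replicate 2. The summed level of the M cell genes was 256 to 295 CPM in asp1-H397A and 222 to 228 CPM in ssu72-C13S. Among P cell genes 0 of 3 were called with edgeR, 0 at an unadjusted p under 0.05 and 0 with DESeq2, against 1, lower, with upper-quartile scaling, and their summed level was 74.2 to 96.1 CPM and 90.0 to 95.4 CPM. Both marker sets were thus present in every library, and the part of mating type in the list above was not tested.

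Of 10 genes for cell-surface flocculins and their regulators, 8 were higher and 1 lower, against 29.7% higher and 24.3% lower over all genes, with a median log2 of 0.85. Upper-quartile scaling gave 5 higher and 1 lower. The flocculin gene pfl9 had 33.8, 34.6 and 36.3 CPM against 3.88, 5.18 and 4.43 CPM (log2 2.96, SE 0.12). For pfl7 the log2 value was 1.70, for pfl8 it was 1.10, and for mbx2, a transcription factor that activates flocculin genes, it was 1.57. The member pfl4 was lower (log2 -0.25). Against WT, pfl8 was higher in both mutants, at log2 1.97 in asp1-H397A and 0.88 in ssu72-C13S, whereas pfl9 was on opposite sides, at 0.72 and -2.23.

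Ribosomal protein genes were higher in 80 of 138 cases, and 0 were lower with edgeR, at an unadjusted p under 0.05 and with DESeq2. Their median log2 was 0.28, against 0.08 over all protein-coding genes. With upper-quartile scaling 61 were higher and 11 lower, and with the A content trend of each library removed 83 were higher and 13 lower. The largest differences were those of rps001, with 1245, 1262 and 1044 CPM against 341, 358 and 354 CPM (log2 1.75, SE 0.09), and of rpl1602 (log2 1.75), rps1002 (log2 1.58) and rps2 (log2 1.51). Many of these proteins are encoded by near-identical gene pairs, between which the counting could split reads. Their share of all counts was 19.2 to 20.02% in asp1-H397A and 17.3 to 17.7% in ssu72-C13S. Against WT the median log2 was 0.06 in asp1-H397A, with 28 higher and 14 lower, and -0.29 in ssu72-C13S, with 1 higher and 87 lower.

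Genes of sugar use split by function. Of 17 glycolytic and fermentation genes, 8 were higher and 0 lower with edgeR, against 33.9% higher and 18.5% lower over protein-coding genes. At an unadjusted p under 0.05 1 was lower, and with DESeq2 0 were. With upper-quartile scaling 7 were higher and 3 lower, and with the A content trend removed 8 were higher and 5 lower. The enolase gene eno101 had 6837, 6677 and 5728 CPM against 2678, 2756 and 2564 CPM (log2 1.27, SE 0.08), and the glyceraldehyde 3-phosphate dehydrogenase gene gpd3 was at log2 1.22 and the pyruvate decarboxylase gene pdc101 at 1.18. The median of the list was only 0.17, since genes such as tpi1 (log2 -0.18) and pyk1 (log2 -0.17) did not pass. Against WT both strains had most of these genes higher, 15 of 17 in asp1-H397A and 13 of 17 in ssu72-C13S.

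Hexose transporter and glucose-repressed genes went the other way, with 7 of 12 lower and 1 higher, against 18.5% lower and 33.9% higher over protein-coding genes, and a median log2 of -0.68. The glucose transporter gene ght5 had 61.2, 75.9 and 58.5 CPM in asp1-H397A and 298, 325 and 272 CPM in ssu72-C13S (log2 -2.19, SE 0.10, edgeR adjusted p = 8.68e-10). WT, at 258 CPM, was close to ssu72-C13S. The related gene ght1 was at log2 -1.56. The invertase gene inv1 (log2 -1.43) and the maltase gene agl1 (log2 -1.14) were lower as well, but there asp1-H397A was near WT, at log2 0.35 and 0.02, and ssu72-C13S was above it, at 1.78 and 1.15. The higher member was scr1, for the repressor of glucose-repressed genes (log2 0.98). The fructose bisphosphatase gene fbp1 did not pass (log2 -0.07).

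Stress genes were mixed. Of 13 core stress genes, 7 were lower and 3 higher, against 18.5% lower and 33.9% higher over protein-coding genes, with a median log2 of -0.32. The membrane stress protein gene hsp9 had 193, 188 and 181 CPM in asp1-H397A and 894, 821 and 886 CPM in ssu72-C13S (log2 -2.21, SE 0.06, edgeR adjusted p = 1.81e-11). The trehalose phosphate synthase gene tps1 (log2 -0.88) and the nuclear envelope gene ish1 (log2 -0.93) were lower, and the transcription factor gene pcr1 was higher (log2 0.60). Of 15 heat shock genes, 7 were lower, including the small heat shock gene hsp16 (log2 -1.88) and the cytosolic HSP70 gene ssa1 (log2 -1.33), and 3 were higher, with a median log2 of -0.27. Those 3 were the mitochondrial HSP70 gene ssc1, with 1141, 1129 and 987 CPM against 398, 427 and 406 CPM (log2 1.40), the ribosome-associated HSP70 gene sks2 (log2 0.89) and the HSP70 gene ssa2 (log2 0.58).

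**Figure D4:**
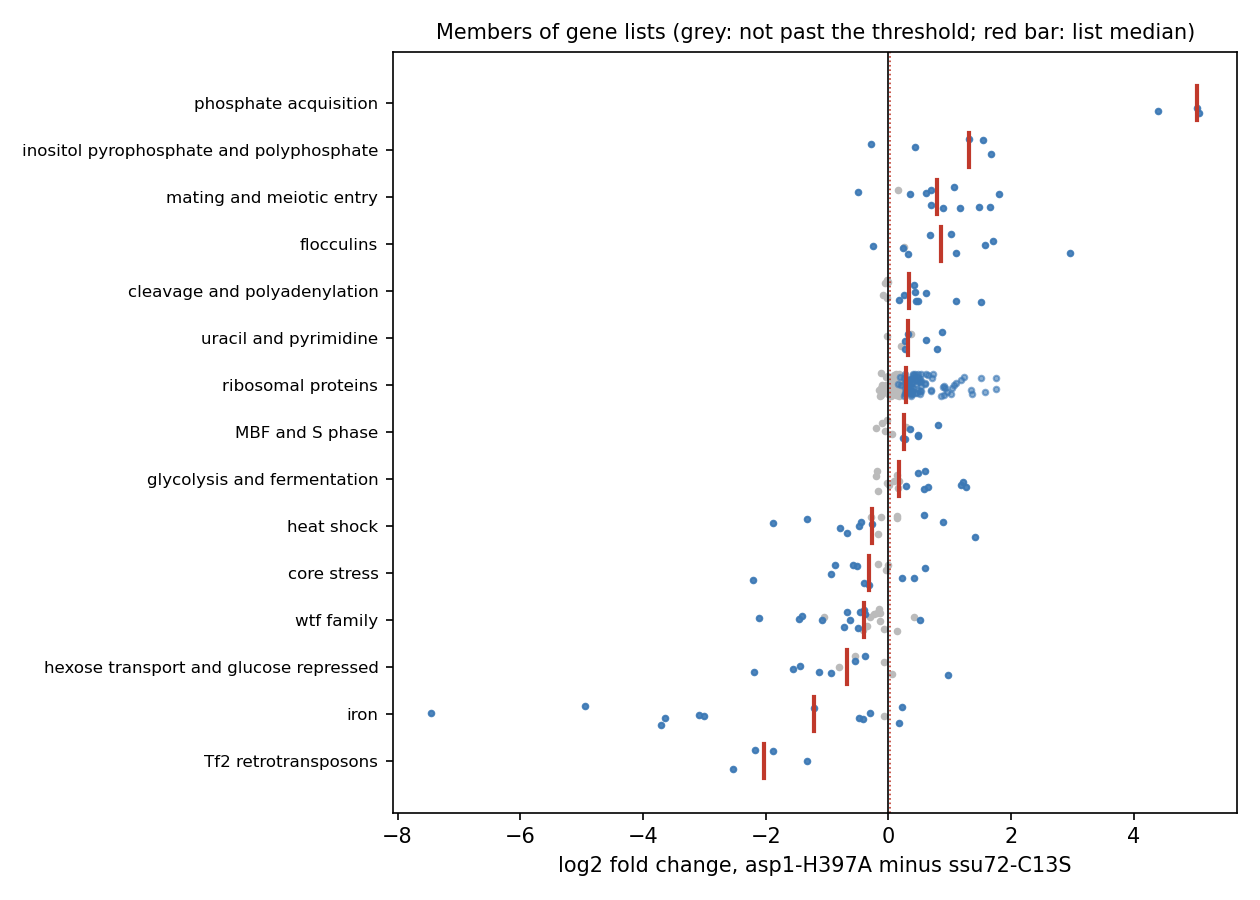
Log2 fold change of asp1-H397A minus ssu72-C13S for each tested member of 15 gene lists (blue if called, grey if not), with the list median as a red bar and the median of all genes, 0.03, as a dotted line. Phosphate acquisition lies at the right with a median of 5.03, and iron genes and Tf2 elements lie at the left with medians of -1.21 and -2.03.

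Because Ssu72 belongs to the cleavage and polyadenylation factor, genes of RNA 3′ end formation were compared. Of 14 genes of the factor, 9 were higher and 0 lower in asp1-H397A with edgeR, against 33.9% higher and 18.5% lower over protein-coding genes, with a median log2 of 0.33. With upper-quartile scaling 6 were higher and 3 lower. Apart from cft2 and ssu72 itself, the differences were small, as for ppn1, a phosphatase regulator (log2 0.62), and mpe1, a zinc-knuckle subunit (log2 0.48). The endonuclease gene ysh1 (log2 -0.06) and the subunit gene pta1 (log2 0.00) did not pass. For cft2 the libraries had 66.2, 71.1 and 86.0 CPM in asp1-H397A and 25.7, 26.6 and 26.5 CPM in ssu72-C13S.

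Of 7 termination genes, 5 were higher and 1 lower, against the same shares of 33.9% and 18.5%. Upper-quartile scaling gave 3 higher and 1 lower. The gene seb1, for an RNA-binding factor of poly(A) site choice, had 176, 163 and 134 CPM against 87.2, 93.3 and 82.9 CPM (log2 0.84, SE 0.09, edgeR adjusted p = 3.03e-06). The termination factor genes rhn1 (log2 0.61) and rna15 (log2 0.51) were higher, and pcf11 was lower (log2 -0.30). Among 12 genes for RNA polymerase II and the enzymes of its tail, 4 were higher and 2 lower, near the shares over protein-coding genes, with 3 higher and 5 lower without asp1-H397A replicate 3. The largest subunit gene rpb1 was higher (log2 0.52) and the CDK7 kinase gene mcs6 was lower (log2 -0.67), with asp1-H397A at log2 -0.17 against WT, which did not pass, and ssu72-C13S at 0.50, which did.

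Non-coding RNAs were more often lower than higher. Of 1118 tested non-coding RNAs with SPNCRNA identifiers, 553 were lower and 124 higher in asp1-H397A, with a median log2 of -0.47, against 922 lower and 1694 higher of 4992 protein-coding genes, with a median of 0.08. Under upper-quartile scaling 645 were lower and 91 higher, and with the A content trend removed 546 were lower and 188 higher. Their share of all counts was 0.955 to 1.05% in asp1-H397A and 1.37 to 1.40% in ssu72-C13S. Against WT, asp1-H397A had 531 lower and 65 higher, with a median log2 of -0.48, whereas ssu72-C13S had 324 lower and 313 higher, with a median of -0.02.

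Non-coding RNAs were also set beside protein-coding genes of like level. At a mean of 5 to 20 CPM, 52.0% of 346 non-coding RNAs were lower, against 22.9% of 524 protein-coding genes, with medians of -0.38 and -0.03. At 20 to 100 CPM the shares were 56.2% of 89 and 16.6% of 2404, with medians of -0.34 and 0.06. At 1 to 5 CPM, however, the shares were alike, 48.5% of 445 and 46.8% of 169, with medians of -0.48 and -0.36. These shares are descriptions, since genes are not independent replicates.

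**Figure D5:**
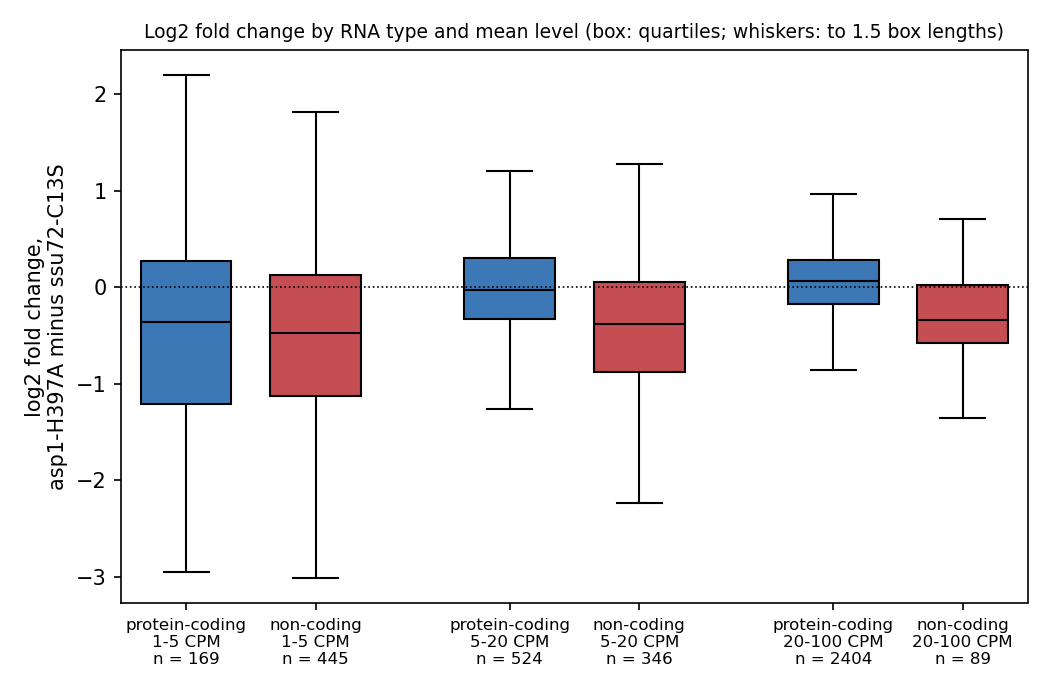
Log2 fold change of asp1-H397A minus ssu72-C13S (vertical axis) for protein-coding (blue) and non-coding (red) genes in 3 ranges of mean CPM, with boxes for the quartiles, a line for the median and whiskers to the farthest value within 1.5 box lengths. The medians are close at 1 to 5 CPM and apart above 5 CPM, where the non-coding medians are -0.38 and -0.34.

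The non-coding RNAs were also counted by their position, without matching for level and without a test between the classes. Of 695 that lie opposite a protein-coding gene, 388 were lower and 58 higher, with a median log2 of -0.57. Of 268 that overlap no protein-coding gene, 87 were lower and 45 higher, with a median of -0.18. Of 61 on the same strand as a protein-coding gene, 27 were lower and 13 higher, with a median of -0.35. Of 83 that overlap protein-coding genes on both strands, 45 were lower and 6 higher, with a median of -0.52. Among 548 pairs of a non-coding RNA and 1 gene opposite it, both were called in 180. In 84 of these pairs the non-coding RNA was lower and the gene higher, in 68 both were lower, in 18 both were higher, and in 10 the non-coding RNA was higher and the gene lower. In the 299 pairs with a lower non-coding RNA, 28.1% of the genes were higher and 22.7% lower, against 33.9% and 18.5% over protein-coding genes. A gene opposite more than 1 such non-coding RNA was counted in each pair. A calcium permease gene, sst1, was higher (log2 1.44), while SPNCRNA.693 opposite it had 1 count over the asp1-H397A libraries and 75 over the ssu72-C13S libraries, a ratio of 64.7 with a 95% counting interval from 11.3 to 2589.6.

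Single non-coding RNAs with at least 5 CPM ranged from log2 -3.81 to 4.04 at the extremes. The most reduced in asp1-H397A was nam3, with 3.99, 3.49 and 4.88 CPM against 56.1, 61.5 and 55.6 CPM (log2 -3.81, SE 0.14, edgeR adjusted p = 1.40e-10). SPNCRNA.1211 was at log2 -3.43, SPNCRNA.1492 at -3.32, SPNCRNA.719 at -3.03 and SPNCRNA.1252 at -2.98. On the higher side, SPNCRNA.1156 followed SPNCRNA.1144 with 11.5, 11.7 and 9.53 CPM against 0.892, 0.616 and 0.576 CPM (log2 3.96, SE 0.20). SPNCRNA.1557 (log2 2.57), SPNCRNA.1471 (log2 1.86) and SPNCRNA.783 (log2 1.78) came next. SPNCRNA.1156, SPNCRNA.1492 and SPNCRNA.719 overlap a gene on the same strand, in that order SPCC1020.10, SPBC17G9.06c and SPAC22A12.13. Reads of such a pair cannot be told apart with certainty. Against WT, nam3 was on opposite sides, at log2 -1.38 in asp1-H397A and 2.43 in ssu72-C13S, and so was SPNCRNA.1156, at 1.11 and -2.85.

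Further lists are given here beside shares of 33.9% higher and 18.5% lower over protein-coding genes. Of 9 uracil and pyrimidine genes, 6 (66.7%) were higher and 0 lower with edgeR, with a median log2 of 0.31. Upper-quartile scaling gave 4 higher and 0 lower. The uracil-induced gene urg1 had 872, 922 and 761 CPM in asp1-H397A and 525, 504 and 359 CPM in ssu72-C13S (log2 0.88), both far above WT at log2 3.90 and 3.02. The uracil phosphoribosyltransferase gene uck2 was at log2 0.79, ura1 at 0.60 and ura2 at 0.31. Of 12 MBF and S-phase genes, 6 were higher and 0 lower with edgeR (median 0.25; 3 higher and 3 lower with upper-quartile scaling), including the ubiquitin ligase adaptor gene cdt2 (log2 0.80), the replication licensing gene cdc18 (log2 0.48), the repressor gene nrm1 (log2 0.48) and the kinase gene mik1 (log2 0.35). Of 21 exosome and Mmi1 machinery genes, 6 were higher and 0 lower with edgeR (median 0.13; 4 higher and 3 lower with upper-quartile scaling, 5 higher and 3 lower with DESeq2 and without asp1-H397A replicate 3), including the RNA-binding gene mmi1 (log2 0.68), the exonuclease gene dis3 (log2 0.57), rrp42 (log2 0.45) and iss10 (log2 0.41). Of 8 meiotic mRNAs that Mmi1 eliminates, 2 were higher and 3 lower, with rec10 at log2 -1.77, rec8 at 1.40, meu13 at -1.40 and crs1 at 1.16, of which rec8, meu13 and crs1 had a mean under 2 CPM. The call of mik1 was lost with upper-quartile scaling (log2 0.19, edgeR adjusted p = 0.23). It was also lost without asp1-H397A replicate 3 and without ssu72-C13S replicate 1 or 3. That of meu13 was lost without asp1-H397A replicate 2 or ssu72-C13S replicate 1, and that of rec8 without ssu72-C13S replicate 3. In these fits with a library left out, the edgeR adjusted p was between 0.0572 and 0.0886.

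Of 14 nitrogen and amino acid uptake genes, 7 were lower and 4 higher. For this list and those of copper, zinc and thiamine, the shares over protein-coding genes were 18.5% lower and 33.9% higher. Apart from isp4, the called nitrogen and amino acid uptake genes included the ammonium transporter gene amt3 (log2 -1.73), isp7 (log2 -0.93) and isp5 (log2 -0.67). For these 3 genes the asp1-H397A values against WT, 0.15, -0.05 and 0.00 on the log2 scale, did not pass, and ssu72-C13S was above WT at 1.87, 0.87 and 0.67. Of 9 copper and zinc genes, 4 were lower, among them the metallothionein gene zym1 (log2 -1.53), the zinc transporter gene zhf1 (log2 -0.88) and the copper transporter gene ctr6 (log2 -0.81), and 2 were higher, among them fet4 (log2 0.56). Of 9 thiamine genes, 3 were higher and 2 lower, with nmt1 (log2 -0.77, at about 1 CPM), thi9 (log2 0.40), bsu1 (log2 -0.33) and pho4, a thiamine-repressed acid phosphatase gene (log2 0.30). With upper-quartile scaling 1 thiamine gene was higher and 4 were lower. Of 16 alternatives, the call was lost under 7 for nmt1, 4 for bsu1 and 2 for pho4. Leaving out asp1-H397A replicate 1 ended the calls of nmt1 and pho4, and replicate 3 those of nmt1 (log2 -0.45) and bsu1 (log2 -0.20). Leaving out ssu72-C13S replicate 1 or 3 ended those of nmt1 and bsu1, and replicate 2 that of bsu1.

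Over protein-coding genes, 33.9% were higher and 18.5% lower, and the next lists can be read against those shares. Of 11 sterol and oxygen genes, 5 were higher and 1 lower, with erg1 at log2 0.76, hem13 at 0.40, erg11 at -0.34 and ofd1 at 0.26. Of 10 histone genes, 3 were higher and 1 lower, with pht1 at log2 0.49, htb1 at 0.46, hhf3 at 0.36 and hht2 at -0.25. Of 13 heterochromatin and RNAi genes, 2 were higher and 2 lower, with rik1 at log2 -0.63, chp2 at -0.39, clr4 at 0.30 and dcr1 at 0.20. Without asp1-H397A replicate 3 the heterochromatin list had 3 higher and 6 lower, and with upper-quartile scaling 0 higher and 3 lower. With the A content trend removed it had 5 higher and 2 lower, and the histones had 3 higher and 6 lower. With upper-quartile scaling the sterol list had 2 higher and 3 lower and the histones 3 higher and 4 lower. Of 7 cell wall synthase genes, 1 was higher and 2 lower, with chs1 at log2 -0.68, bgs2 at -0.30 and bgs4 at 0.20. Of 16 alternatives, the call was lost under 11 for bgs4, 8 for dcr1, 5 for hht2, 4 for chp2, 3 for ofd1 and 1 for clr4. DESeq2 did not call bgs4 (adjusted p = 0.137) or dcr1 (adjusted p = 0.0815). Removing the A content trend ended the call of chp2 (log2 -0.10, edgeR adjusted p = 0.269). Leaving out asp1-H397A replicate 1 ended the calls of bgs4, dcr1, hht2 and ofd1, replicate 2 those of bgs4, dcr1 and chp2, and replicate 3 that of hht2. Leaving out ssu72-C13S replicate 1 ended the calls of bgs4 and hht2, replicate 2 those of bgs4, dcr1, chp2 and hht2, and replicate 3 those of bgs4, dcr1 and chp2, with adjusted p between 0.0507 and 0.357 in these fits. Of 3 tested strain marker genes, leu1 was higher (log2 0.43).

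The last lists can be read against 24.3% lower and 29.7% higher over all genes. Of 3 tested genes of a cluster encoding But2 domain proteins, 2 were lower. SPAC27D7.09c had 60.1, 63.7 and 50.7 CPM in asp1-H397A and 396, 428 and 435 CPM in ssu72-C13S (log2 -2.85, SE 0.10), and SPAC27D7.11c was at log2 -0.80. Both strains were above WT for SPAC27D7.09c, at log2 1.15 and 4.004. Of 13 Tf2 retrotransposon genes 4 had enough counts to be tested, and those 4 were lower, at log2 -2.53 for Tf2-11, -2.18 for Tf2-6, -1.88 for Tf2-10 and -1.32 for Tf2-2. Without asp1-H397A replicate 3 the value for Tf2-10 was -2.63. These copies are near-identical, so how their reads were shared out is uncertain. Of 24 wtf meiotic driver genes, also a family of similar copies, 11 were lower and 1 higher, with a median log2 of -0.40, led by wtf3 (log2 -2.11), wtf20 (log2 -1.46), wtf5 (log2 -1.42) and wtf22 (log2 -1.09). Of 4 tested mitochondrial genes, SPMIT.01 (log2 0.98) and SPMIT.11 (log2 0.94) were higher at under 2 CPM, in libraries selected for poly(A). The call of SPMIT.11 was lost under 6 of 16 alternatives, among them DESeq2 (adjusted p = 0.0951), leaving out asp1-H397A replicate 2 (log2 0.63, edgeR adjusted p = 0.182) and leaving out ssu72-C13S replicate 2 or 3 (edgeR adjusted p = 0.072 and 0.123).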

How the data were processed

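The authors deposited raw counts per gene, 1 column per library, with replicates not pooled. HISAT2 2.1.0, SAMtools, HTSeq 0.10.0, DESeq2 and the build ASM294v2 are named in the submitters' processing notes. The annotation and the strand setting of the counting are not given in the sources used here. Of 6987 rows, 1 repeated identifier was dropped. Identifiers were matched to RefSeq's annotation of ASM294v3 (6833 by locus tag, 13 by synonym, 140 not matched), used for names, overlaps, length and A content only, so no coordinates are given.

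Genes were kept with filterByExpr (minimum count 10), and all 12 libraries entered 1 edgeR 4.0.16 quasi-likelihood fit in R 4.3.3 with TMM scaling and no replicate block, checked on simulated data. SE is the log2 fold change divided by the square root of F. Named genes were the phosphate and mutated genes, the 8 coding and 5 non-coding genes per direction with the largest log2 values (at least 5 CPM, no overlap), the 3 per direction with the largest CPM difference, and up to 4 called members per list with the largest log2 values. Further list members are named to fill out a list. Members and lists were chosen with earlier results of these data known. Of list names, vtc1, xpr1, cfi1, fui1, SPAC27D7.10c, hsp60, mcp5, dil1 and can1 were not used here. Depth was 23115806 to 29124916 counts per library. Alternatives were DESeq2 1.42.0, RLE and upper-quartile scaling, other filters, only 6 libraries, a replicate block, robust estimation, A content trends removed by splines with 4 degrees of freedom, and libraries left out.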

Additional observations from a re-analysis of the deposited data

How the results depend on the processing

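Over the alternatives, between 2898 and 4494 genes differed between asp1-H397A and ssu72-C13S, against 3342, and between 512 and 829 differed 2-fold or more, against 755. Leaving out 1 library at a time gave 2898 to 3916 genes and 745 to 826 at 2-fold or more. The highest total, 4494, came without asp1-H397A replicate 3 and triple mutant replicate 1. The 512 came with a mean count of at least 50, which tested fewer genes. DESeq2 called 3355. The share of calls that were higher was 54.9% with TMM, 50.1% with DESeq2 and 33.7% with upper-quartile scaling, so the split of all genes by direction depends on the scaling. Of 2223 values of the 140 named genes under 16 alternatives, 0 reversed and 60 lost the call, in 14 genes with small differences or low counts (nmt1, bsu1, pho4, mfm3, rec8, meu13, chp2, clr4, dcr1, hht2, ofd1, bgs4, mik1 and SPMIT.11), and the cause was not tested. Replicate numbers did not pair the libraries, as same-numbered deviations correlated at 0.0078, -0.0015 and 0.0346. With the replicate block 3263 genes were called, 754 at 2-fold or more. Depth limits genes at under 1 CPM, and the intervals given cover counting error only.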

Other observations

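Genes for defence against oxidants and drugs, a list added after the data were seen and therefore only a description, were mostly lower in asp1-H397A than in ssu72-C13S. Of 15 listed, 12 were lower and 0 higher with edgeR, against 18.5% lower and 33.9% higher over protein-coding genes. Their median log2 was -0.47, and the counts were the same with upper-quartile scaling and without asp1-H397A replicate 3. Besides srx1 and obr1, the glutathione transferase gene gst2 had means of 110.3 CPM ± 16.0 (SD, n = 3) in asp1-H397A and 849.7 CPM ± 17.8 (SD, n = 3) in ssu72-C13S, with a log2 fold change of -2.94. The drug exporter genes caf5 (log2 -2.66) and bfr1 (log2 -1.31) and the superoxide dismutase gene sod1 (log2 -0.52) were lower too. The transcription factor gene pap1, whose product controls many of them, was lower by less (log2 -0.26). The peroxiredoxin gene tpx1 (log2 0.04) and the thioredoxin reductase gene trr1 (log2 0.03) did not pass the threshold. Against WT, gst2, caf5, bfr1 and sod1 were at log2 0.24, 0.44, 1.11 and -0.15 in asp1-H397A. In ssu72-C13S they were at 3.18, 3.10, 2.41 and 0.37. The gst2 and sod1 values in asp1-H397A did not pass. In contrast, srx1 lay on both sides of WT, at log2 -0.67 in asp1-H397A and 3.40 in ssu72-C13S.

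The largest positive log2 values of all belonged to genes under 5 CPM that the naming rule left out. SPBCPT2R1.04c had 7.45, 7.26 and 7.31 CPM in asp1-H397A and 0.137, 0.181 and 0.144 CPM in ssu72-C13S (log2 5.53, SE 0.27). SPAC212.12, for a GPI-anchored protein, had 4.33, 4.26 and 6.04 CPM against 0.172, 0.0725 and 0.0720 CPM (log2 5.46, SE 0.31). Against WT both genes lay on opposite sides, at log2 1.16 and -4.37 for the first and 1.90 and -3.56 for the second.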
